A study of Mus musculus with 18 samples.

Results

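The 33 genes described here carry fatty acids into mitochondria and oxidise them there and in peroxisomes, make and use ketone bodies, or regulate these steps. They were taken by symbol from a table of 20985 rows, and all 33 symbols were found. By role they were Acsl1 (activation of fatty acids), Cpt1a, Cpt1b, Cpt1c, Cpt2, Slc25a20 and Crat (the carnitine shuttle), Acadl, Acadm, Acads, Acadvl, Hadh, Hadha, Hadhb, Echs1 and Acaa2 (the mitochondrial oxidation spiral), and Eci1, Eci2 and Decr1 (double bonds of unsaturated acids). The others were Etfa, Etfb and Etfdh (transfer of electrons to the respiratory chain), Acaa1a, Acox3, Ehhadh and Hsd17b4 (peroxisomes), Bdh1, Oxct1 and Oxct2a (ketone bodies), and Ppara, Ppargc1a, Pdk4 and Ucp2 (regulators).

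The study examined fecal microbiota transfer in mice with testis damage after a high fat diet and STZ. Testis RNA of 10 week old ICR mice, an outbred stock, was sequenced in 18 libraries, 3 in each of 6 groups. HFD_STZ_AOS_FMT and HFD_STZ_control_FMT received the high fat diet, STZ (streptozotocin, which kills pancreatic beta cells) and a transfer (FMT) named for AOS or for control. The label of HFD_STZ_AOS_FMT gives AOS at 10 mg/kg and does not say whether donors or recipients received it. HFD_STZ_AOS received the diet, STZ and AOS at 10 mg/kg, and HFD_STZ the diet and STZ alone. The AOS group received AOS at 10 mg/kg without diet or STZ, and the control group none of these. The labels do not spell out AOS, and they give neither the length of the diet nor the dose of STZ. Whether each library was made from its own animal is not labelled, and the spread behind every p-value is that between libraries, which may be technical.

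Values are RPKM, read numbers divided by gene length and library size, so levels can be set beside each other per length. The deposited values summed to 588160 to 646910 RPKM per library, and a rough estimate from the steps between low values gave 12100000 to 13700000 reads. On the same estimate Decr1 had a median of 127 reads per library, and Ppargc1a 9.91. Markers of Leydig cells (6 of 6) and Sertoli cells (8 of 9) averaged at least 1 RPKM, as did all 7 markers of elongating spermatids, while none of the 3 liver markers did. Crisp1, a gene of the epididymis, exceeded 50 RPKM in 4 libraries, namely the third of HFD_STZ_AOS_FMT, the second of HFD_STZ_control_FMT, the third of HFD_STZ_AOS and the third of control. Differences are in log2(RPKM + 1), each ± its standard error, and limma's p-values were adjusted over the 13874 genes tested. Of the 33 genes 30 passed the filter of at least 1 RPKM in at least 3 libraries, and Ehhadh, Pdk4 and Ppargc1a did not.

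Fatty acids are activated to acyl-CoA, exchanged onto carnitine by CPT1, carried across the inner mitochondrial membrane by the product of Slc25a20, and returned to CoA by CPT2. Each turn of the spiral then uses an acyl-CoA dehydrogenase chosen by chain length, a hydratase, a second dehydrogenase and a thiolase, and releases acetyl-CoA. In the testis, Sertoli cells oxidise lipid taken up from dying germ cells and residual bodies, germ cells have their own isoforms of several of these enzymes, and Leydig cells hold lipid for steroid synthesis. Whole testis RNA does not separate these cells, so fewer cells of a type and less RNA per cell cannot be told apart in any result here.

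The stretches of 250 bases before the annotated start are shown for 3 genes that passed the test in a contrast of the diet with STZ. Decr1 also passed in such a contrast but had no stretch among the sequences used. The sequences are from RefSeq (GRCm38.p6), read 5′ to 3′ along the gene, with capitals marking AGGTCA (a core letter run of nuclear receptor sites), GGGCGG (a GC box) and TGACG (the core of a cyclic AMP response element) on either strand.
Acadl at chr1:66863310-66863559, minus strand: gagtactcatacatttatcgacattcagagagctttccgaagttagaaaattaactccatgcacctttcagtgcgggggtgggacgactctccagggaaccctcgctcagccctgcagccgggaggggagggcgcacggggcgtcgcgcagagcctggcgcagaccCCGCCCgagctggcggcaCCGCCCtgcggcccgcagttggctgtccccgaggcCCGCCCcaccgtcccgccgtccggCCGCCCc
Acadvl at chr11:70015429-70015678, minus strand: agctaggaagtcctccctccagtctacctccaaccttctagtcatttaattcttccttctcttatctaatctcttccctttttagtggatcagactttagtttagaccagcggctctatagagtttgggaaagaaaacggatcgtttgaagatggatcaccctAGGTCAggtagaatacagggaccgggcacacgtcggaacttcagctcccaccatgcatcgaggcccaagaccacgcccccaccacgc
Ucp2 at chr7:100493108-100493357, plus strand: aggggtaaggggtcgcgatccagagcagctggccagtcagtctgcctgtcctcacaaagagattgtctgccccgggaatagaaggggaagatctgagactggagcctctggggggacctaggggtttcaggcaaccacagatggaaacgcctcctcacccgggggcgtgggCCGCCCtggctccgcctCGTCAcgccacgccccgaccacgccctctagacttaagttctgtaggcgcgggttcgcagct
The Acadl stretch was 68% G or C and held 4 GGGCGG matches, the nearest 7 bases before the start. The Acadvl stretch was 49.6% G or C and held 1 AGGTCA match, 87 bases before the start. The Ucp2 stretch, 63.6% G or C, held GGGCGG 79 and TGACG 62 bases before the start.

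Of the 33 genes 28 had such a stretch in the table, and Cpt1b, Crat, Acaa2, Decr1 and Hsd17b4 had none. GGGCGG was found in 18 of the 28 genes and in 32.7% of the 32851 stretches of all genes, and AGGTCA in 5 genes and in 14% of the stretches. TGACG was found in 8 genes and in 17.8% of the stretches, and CCAAT in 11 genes and 33.8%. Neither TATAAA, held by 12.4% of all stretches, nor the direct repeat of AGGTCA with 1 base between (the form bound by PPAR with RXR), held by 0.0335%, was found in any of the 28. Median G or C content was 59.2% in the stretches of these genes and 52.4% in all stretches. These are matches of letters and say nothing of binding.

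Levels spanned more than 3 orders of magnitude. Crat, carnitine acetyltransferase, was highest at a mean of 428.7 RPKM over the 18 libraries, followed by Acsl1, a long-chain acyl-CoA synthetase, at 250.3 RPKM and Oxct2a, a germ cell enzyme of ketone use, at 138.1 RPKM. Cpt1b, the CPT1 form of muscle and brown fat, was the last of 4 genes above 100 RPKM, at 112.6 RPKM. A further 17 genes averaged 10 to 100 RPKM, 8 averaged 1 to 10 RPKM and 4 averaged less than 1 RPKM. Ppara, a nuclear receptor that drives many of the other genes in liver, averaged 0.959 RPKM, and Pdk4, a brake on pyruvate entry, 0.691 RPKM. Ppargc1a, a coactivator of mitochondrial genes, was lowest at 0.117 RPKM. Of the 32 pairs of neighbours in this order 9 had ranges over the 18 libraries that did not overlap, among them each step from Crat down to Cpt1c, and 23 overlapped. Reads of Oxct2a and Oxct2b, and of Acaa1a and Acaa1b, may have been split between near-identical copies, and how the authors handled such reads is not given in the sources used here.

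**Figure D1:**
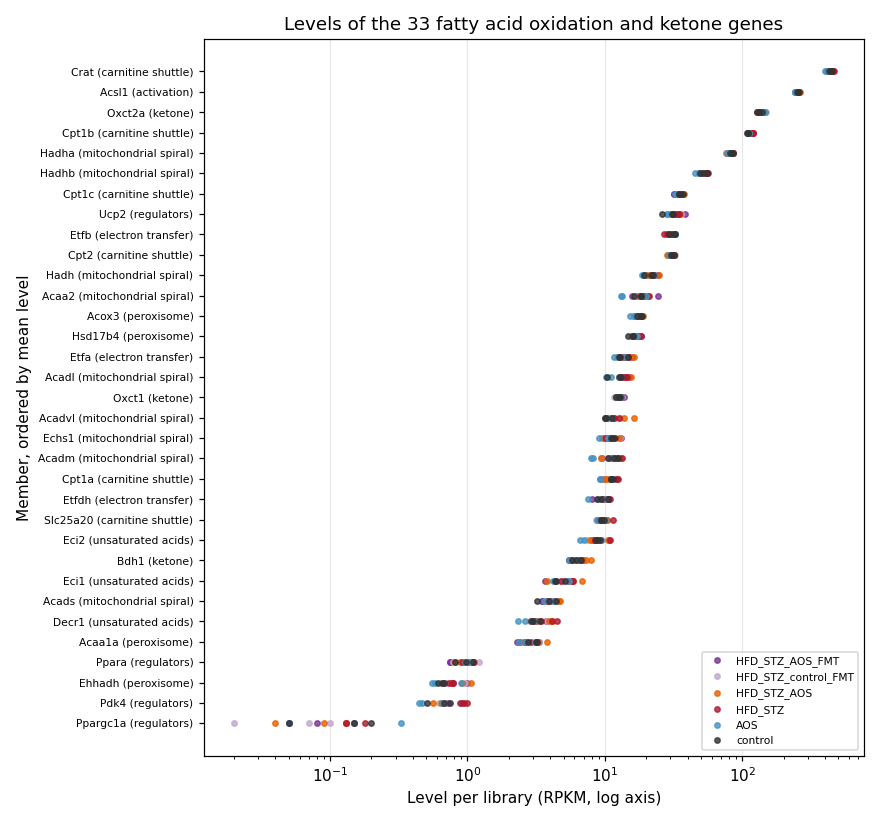
Level of each of the 33 genes in each of the 18 libraries (points, coloured by group), on a log axis of RPKM, with genes ordered by mean level. Crat at a mean of 428.7 RPKM stands at the top and Ppargc1a at 0.117 RPKM at the bottom, and the groups lie close together for most genes.

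The 3 Cpt1 paralogs differed in level by about an order of magnitude. Cpt1b averaged 112.6 RPKM, Cpt1c, the form of brain and testis in the endoplasmic reticulum, 34.7 RPKM, and Cpt1a, the liver form, 10.6 RPKM. Their ranges over the 18 libraries were 107.4 to 120.3 RPKM for Cpt1b, 31.7 to 37.5 RPKM for Cpt1c and 9.24 to 12.5 RPKM for Cpt1a, with no overlap. Oxct2a likewise stood above Oxct1, its somatic counterpart, with 126.9 to 149.9 RPKM against 11.7 to 13.7 RPKM. In the spiral, Hadha and Hadhb, the subunits of the trifunctional protein for long chains, averaged 81.1 and 51.8 RPKM. The 4 acyl-CoA dehydrogenases were lower, at 13.2 RPKM for Acadl, 11.5 for Acadvl, 10.9 for Acadm and 3.98 for Acads. Hadha (minus strand) and Hadhb (plus strand) lie head to head on chromosome 5 (GRCm38, GENCODE vM21), starting at 30155162 and 30155248.

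Spread over the 18 libraries differed as widely. The coefficient of variation was smallest for Acsl1, at 2.27%, and largest for Ppargc1a, at 63.5%. Among the genes above 1 RPKM it was largest for Decr1, the reductase of conjugated double bonds, at 17.4%. The highest value of 10 genes fell in the third HFD_STZ_AOS library. That library had a summed level of adipocyte markers of 160.9 RPKM and 156.7 RPKM of Crisp1. The third HFD_STZ_AOS_FMT library, at 202.6 and 164.7 RPKM in that order, held the highest value of 0 genes. The third HFD_STZ_control_FMT library, at 207.2 RPKM of adipocyte markers, held that of 1 gene. The lowest value fell in the third AOS library for 9 genes and in the first for 8. Factors of the median-ratio scaling used below ran from 0.9687 in the first AOS library to 1.042 in the third HFD_STZ_AOS library. The third AOS library had 0.9778, and the first HFD_STZ_AOS_FMT library, lowest for 1 gene, had 0.9752. The part of marker levels or of scale in these extremes was not tested. The first and the third AOS library had summed Leydig markers of 2759 and 2536 RPKM, against 3457 RPKM in the second AOS library. Acadm was at 8.19, 11.2 and 7.96 RPKM and Acaa2, a thiolase, at 13.4, 20.01 and 13.1 RPKM in the 3 AOS libraries, so the second stood above the others in both.

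HFD_STZ was first set against control, the direct measure of the diet with STZ. No gene of the set passed limma's test, and neither did any of the 13874 genes (0%), of which 1151 (8.3%) had an unadjusted p below 0.05, 6 of the 30 among them. The smallest adjusted p among the 30 was 0.354, for Cpt1b, which was at 120.0, 115.1 and 119.5 RPKM in HFD_STZ and 107.4, 109.3 and 110.9 RPKM in control. All 3 HFD_STZ libraries stood above all 3 control libraries, by 0.11 ± 0.03 on the log2 scale. Hsd17b4, the multifunctional enzyme of peroxisomal oxidation, was at 18.3, 17.5 and 16.7 RPKM in HFD_STZ and 14.7, 16.1 and 16.0 RPKM in control, a difference of 0.16 ± 0.06. Ucp2, an uncoupling protein of the inner membrane, was at 34.9, 31.8 and 34.1 RPKM in HFD_STZ and 30.8, 25.9 and 31.4 RPKM in control, a difference of 0.19 ± 0.07. The adjusted p was 0.487 for both, and neither gene's groups overlapped.

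Of the 30 genes 22 had a difference above 0 in this comparison, with a median of 0.06, while 8257 of the 13874 genes (59.5%) did, with a median of 0.02. An unadjusted p below 0.05 was found for 5 genes with higher and 1 with lower levels in HFD_STZ, against 6.16% and 2.13% of all genes. For 7 genes (Cpt1b, Acadl, Acadvl, Acaa2, Decr1, Hsd17b4 and Ucp2) every HFD_STZ library was above every control library, against 11.7% of all genes, and for 0 every one was below, against 4.53%. By role, differences above 0 were found for 6 of 6 carnitine shuttle genes, 8 of 9 spiral genes and 3 of 3 genes of unsaturated acids, but for 1 of 3 tested peroxisome genes and 0 of 3 ketone genes.

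A second contrast set the 6 libraries of HFD_STZ and HFD_STZ_AOS against the 6 of AOS and control, which asks for the effect of the diet with STZ whether or not AOS was given. Decr1, Acadl (long-chain acyl-CoA dehydrogenase) and Acadvl (the very-long-chain form) rose, and no gene of the set fell. That is 3 of 30, where 2.4% of all genes rose and 0.454% fell. Decr1 (chromosome 4, 15917240 to 15945507) was at 3.91, 3.20 and 4.12 RPKM in HFD_STZ_AOS and 4.47, 3.43 and 4.15 RPKM in HFD_STZ. It was at 2.62, 3.07 and 2.35 RPKM in AOS and 3.02, 2.89 and 3.36 RPKM in control. The second HFD_STZ_AOS library fell within the range of control, the other 5 libraries with diet and STZ stood above all of AOS and control, and the difference was 0.33 ± 0.08 with an adjusted p of 0.0402.

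Acadl (chromosome 1, 66830839 to 66863277) was at 13.4, 14.3 and 15.5 RPKM in HFD_STZ_AOS and 14.2, 13.5 and 14.5 RPKM in HFD_STZ. In AOS it was at 10.2, 13.1 and 11.1 RPKM, and in control at 13.1, 12.7 and 10.4 RPKM. All 6 libraries with diet and STZ stood above the other 6, and the difference was 0.26 ± 0.07 with an adjusted p of 0.0454. Acadvl (chromosome 11, 70010183 to 70015411) was at 13.8, 11.7 and 16.3 RPKM in HFD_STZ_AOS and 11.7, 11.3 and 12.7 RPKM in HFD_STZ. In AOS it was at 11.2, 10.3 and 10.2 RPKM, and in control at 10.1, 10.2 and 11.2 RPKM. Here too the 6 libraries did not overlap with the other 6, by 0.26 ± 0.07 with an adjusted p of 0.0454, although the highest control library, at 11.21 RPKM, nearly met the lowest HFD_STZ library, at 11.26 RPKM. Such a separation upwards was found for these 2 genes of the 30 and for 1.61% of all genes, and a separation downwards for 0 of the 30 and 0.238%. With an unadjusted p below 0.05, 9 genes were higher and 1 lower, against 14.3% and 4.42% of all genes.

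These calls were close to the threshold. Scaling the libraries by median ratios left 0 of the 3, with Etfb, a subunit of the electron transfer flavoprotein, alone called in the set and lower by 0.16 ± 0.04 (adjusted p 0.0413), and removing each library's trend on transcript length did likewise (0.17 ± 0.04 lower, adjusted p 0.0329). Over all genes the scaling gave 145 higher and 112 lower, against 333 and 63 on the values as deposited. Without the third HFD_STZ_AOS library, the differences of Decr1, Acadl and Acadvl were 0.30, 0.23 and 0.21, with adjusted p of 0.108, 0.122 and 0.109. The call of Decr1 was missed without the first or the third library of HFD_STZ_AOS, HFD_STZ or AOS, or without any control library, at 0.0577 to 0.108. It held without any 1 of the other 9, namely every transfer library and the second of HFD_STZ_AOS, HFD_STZ and AOS. The transfer libraries do not enter the difference of this contrast. The call of Acadl held without the first or the second HFD_STZ_AOS_FMT, the first HFD_STZ_AOS or the second AOS library and was missed without any other, at 0.0510 to 0.122. That of Acadvl held without the first or the third HFD_STZ_control_FMT or the second HFD_STZ_AOS library and was missed without any other, at 0.0508 to 0.113. All 3 were also missed without the 4 libraries high in Crisp1. The differences were above 0 in all 25 alternative fits, at 0.29 to 0.41 for Decr1, 0.19 to 0.31 for Acadl and 0.21 to 0.32 for Acadvl.

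Of the 30 genes 26 had a difference above 0, with a median of 0.09, against 64.7% of all genes and a median of 0.03. Under the scaling 20 of 30 did, with a median of 0.05. The differences ran to 0.33 for Decr1 at one end and to -0.12 for Etfb at the other. By role the medians were 0.18 for unsaturated acids, 0.14 for electron transfer, 0.12 for the spiral, 0.09 for the 2 regulators tested, 0.06 for the carnitine shuttle and for peroxisomes, and 0.02 for ketone genes and Acsl1.

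**Figure D2:**
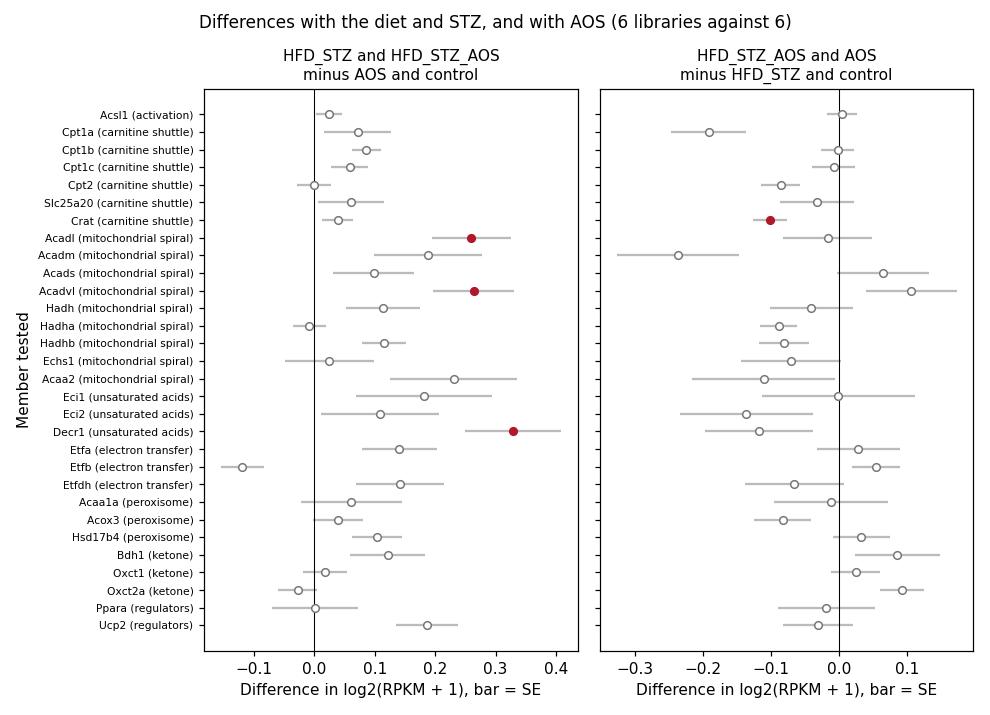
Difference in log2(RPKM + 1) with its standard error for the 30 genes tested, grouped by role, between HFD_STZ with HFD_STZ_AOS and AOS with control (left) and between HFD_STZ_AOS with AOS and HFD_STZ with control (right), 6 libraries against 6. Filled red points passed at an adjusted p below 0.05, namely Acadl, Acadvl and Decr1 on the left and Crat on the right, while open grey points did not.

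Summed Sertoli markers were higher in the libraries with diet and STZ of this contrast. The summed level of 9 Sertoli markers was 159.4 to 175.7 RPKM in HFD_STZ_AOS and 158.0 to 163.2 in HFD_STZ, against 146.4 to 156.2 in AOS and 143.0 to 151.5 in control, without overlap. The sum of 6 Leydig markers was 3513 to 4128 RPKM in HFD_STZ_AOS and 3592 to 4458 in HFD_STZ, against 2536 to 3457 in AOS and 3465 to 3988 in control. A single gene made up the largest part of each sum, Aard (mean of 86.3 RPKM over the 18 libraries) for Sertoli and Insl3 (3189 RPKM) for Leydig markers. Of the 9 Sertoli and 6 Leydig genes, 7 and 5 had differences above 0 and none passed the test. Those that went the other way were Sox9 (2.96 RPKM on average with diet and STZ and 3.06 without), Dhh (3.53 and 3.61) and Cyp17a1 (265.7 and 301.5). Acr, an acrosomal protease and 1 of 4 round spermatid markers, fell by 0.13 ± 0.03 (adjusted p 0.0478). It was at 166.9 to 185.4 RPKM in the 6 libraries with diet and STZ and 189.6 to 198.9 RPKM in the other 6, without overlap. The rest of that list did not fall alike. Tssk1 averaged 285.46 RPKM with diet and STZ and 275.16 RPKM without, Spaca1 163.55 and 163.36, and Acrv1 289.07 and 290.64. No other marker passed. The sum of 8 adipocyte markers was 22.7 to 160.9 RPKM in HFD_STZ_AOS and 18.02 to 32.6 in HFD_STZ, against 18.9 to 48.8 in AOS and 19.9 to 43.6 in control. The part of these cells in the results was not tested.

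Other genes of the pathway were counted in the same contrast over a list of 59, of which 48 were tested. Of these 5 rose and 0 fell, 35 had differences above 0, and the median was 0.07. Fabp3, a fatty acid binding protein (chromosome 4, 130308595 to 130315463), rose by 0.53 ± 0.11 with an adjusted p of 0.0204. It was at 217.5, 236.9 and 230.0 RPKM in HFD_STZ_AOS and 249.9, 174.7 and 239.4 RPKM in HFD_STZ. It was at 130.1, 178.3 and 117.2 RPKM in AOS and 184.0, 187.3 and 145.7 RPKM in control, so the second HFD_STZ library lay within the range of both. Without the first or the third HFD_STZ or the third AOS library its adjusted p was 0.0523 to 0.0567, in a fit of only the 4 groups 0.0510, and without the libraries high in Crisp1 0.118. Ech1, an isomerase of dienoyl-CoA, rose by 0.23 ± 0.05, Fabp5, another binding protein, by 0.49 ± 0.12 and Pdk3, a kinase that restrains pyruvate oxidation, by 0.14 ± 0.03. Their adjusted p were 0.0385, 0.0459 and 0.0435, and each was missed without any 1 of 10, 14 and 14 libraries in that order. All 3 were also missed under the scaling (0.0700, 0.0605 and 0.155), with the replicate block (0.0505, 0.0593 and 0.0526), without a filter on low values (0.0570, 0.0739 and 0.0573), with the length trend removed and without the libraries high in Crisp1.

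**Figure D3:**
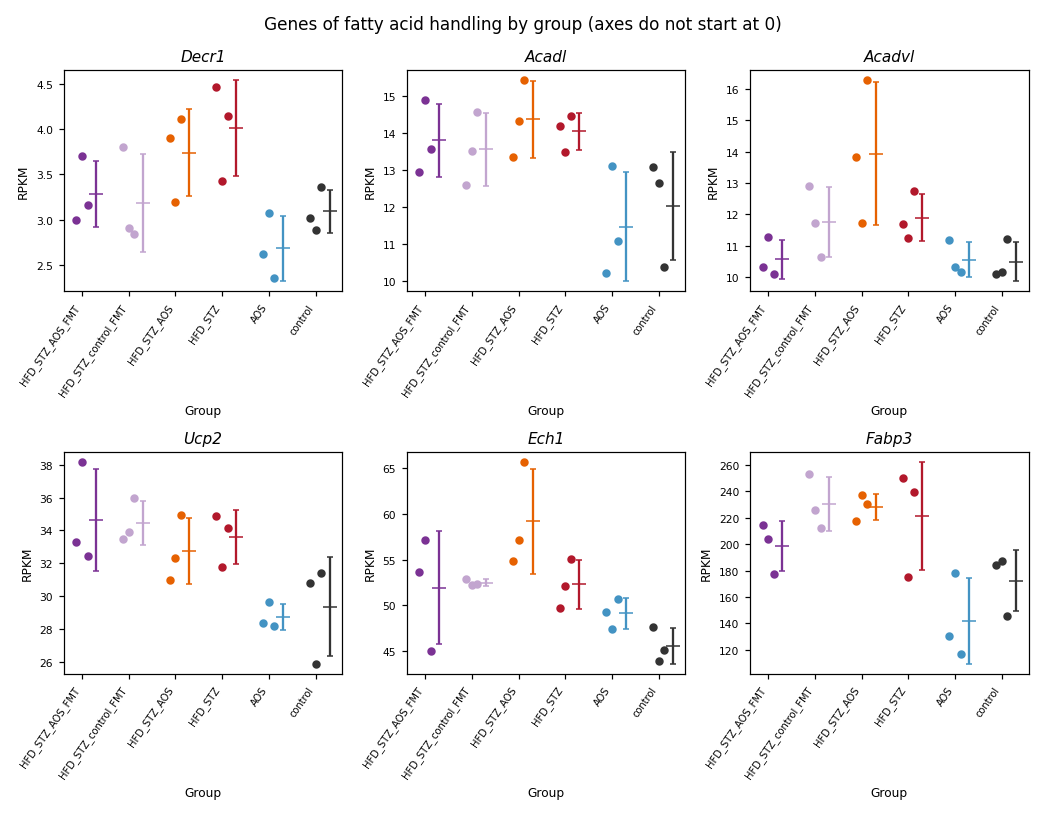
RPKM of Decr1, Acadl, Acadvl, Ucp2, Ech1 and Fabp3 in each library (points) of the 6 groups, with the mean and SD of 3 libraries (bar beside them). Acadl is at 13.4 to 15.5 RPKM in the HFD_STZ_AOS and HFD_STZ libraries, above the 10.2 to 13.1 RPKM of AOS and control.

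With the transfer groups included, the 12 libraries of all 4 HFD_STZ groups were set against the same 6 of AOS and control, so this contrast shares libraries with the one before. Ucp2 (chromosome 7, 100493337 to 100502020) rose, 1 of 30 genes where 0.656% of all genes rose, by 0.21 ± 0.04 with an adjusted p of 0.0423. It was at 31.0 to 38.2 RPKM with a median of 33.7 in the 12 libraries, against 25.9 to 31.4 RPKM with a median of 29.0 in the 6. By group, Ucp2 averaged 34.6 ± 3.08 RPKM in HFD_STZ_AOS_FMT, 34.5 ± 1.34 in HFD_STZ_control_FMT, 32.7 ± 2.01 in HFD_STZ_AOS and 33.6 ± 1.62 in HFD_STZ, against 28.7 ± 0.780 in AOS and 29.4 ± 3.02 in control (SD, n = 3 each). Each of the 4 means was thus above both others, and a single control library, at 31.4 RPKM, exceeded the lowest of the 12. The call was missed under the median-ratio scaling, with the replicate number as a block and without any 1 of 12 libraries (adjusted p 0.0543 to 0.115). It held without the first or the third HFD_STZ_AOS_FMT, the first or the second HFD_STZ_AOS, the second HFD_STZ or the second AOS library.

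In the same contrast Decr1, Acadl and Acadvl differed by 0.23, 0.23 and 0.17, with adjusted p of 0.125, 0.0645 and 0.164. Among the 48 other genes of the pathway Fabp3 rose by 0.49 ± 0.09 and Phyh, which starts the breakdown of phytanic acid, by 0.38 ± 0.08, with adjusted p of 0.0299 and 0.0473. These calls were missed without any 1 of 8 and 14 libraries in that order. Fabp3 was also missed without a filter on low values (0.0525), with the length trend removed (0.0536) and without the libraries high in Crisp1 (0.104). Phyh was missed in 5 of 6 other alternative fits, all but that with a pseudocount of 0.1, among them the scaling (0.0649) and the replicate block (0.0623). Among the 6 Leydig markers Hsd3b1, an enzyme of steroid synthesis, rose by 0.70 ± 0.13 (adjusted p 0.0300), at 72.2 to 180.7 RPKM in the 12 libraries and 48.1 to 87.6 RPKM in the 6, and 5 of 6 had differences above 0. All 7 adipocyte markers tested had differences above 0, with a median of 0.53, and none passed. The summed Leydig markers ran from 2735 to 5297 RPKM in the 2 transfer groups, and the adipocyte markers from 60.1 to 207.2 RPKM. The part of these cells in the rise of Ucp2, Fabp3 and Phyh was not tested.

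AOS was set against control to ask for its effect without diet or STZ. None of the 30 genes passed, nor did any of the 13874 (0%), with 1923 (13.9%) at an unadjusted p below 0.05. At that level 1 gene of the set was higher and 5 were lower in AOS, against 5.46% and 8.4% of all genes. Crat was at 414.9, 421.0 and 399.5 RPKM in AOS and 441.7, 453.0 and 429.4 RPKM in control. The groups did not overlap, and the difference was -0.10 ± 0.04 with an adjusted p of 0.256. Acox3, a peroxisomal oxidase of branched acids, was at 15.3, 16.6 and 16.5 RPKM in AOS and 17.1, 18.7 and 18.5 RPKM in control, a difference of -0.16 ± 0.06 with an adjusted p of 0.277. Acadm, the medium-chain dehydrogenase, was at the values given above in AOS and at 11.7, 12.5 and 10.5 RPKM in control, a difference of -0.33 ± 0.13 with an adjusted p of 0.286. Its second AOS library lay within the control range. Differences above 0 were found for 9 of 30 genes and for 40.2% of all genes, and the medians were -0.07 and -0.03. Every AOS library was below every control library for 5 genes (Cpt1a, Crat, Hadha, Echs1 and Acox3), against 14.8% of all genes, and above for 0, against 7.76%.

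Over both backgrounds, with the 6 libraries of HFD_STZ_AOS and AOS against the 6 of HFD_STZ and control, Crat fell, 1 of 30 genes where 1.05% of all genes fell and 1.3% rose. Crat (chromosome 2, 30400471 to 30415813) was at 423.4, 414.6 and 429.0 RPKM in HFD_STZ_AOS and at the values above in AOS, against 456.4, 461.2 and 443.9 RPKM in HFD_STZ. The 6 libraries with AOS were all below the other 6, though the highest of them, at 429.0 RPKM, nearly met a control library at 429.4 RPKM, and the difference was -0.10 ± 0.03, a ratio of 0.932, with an adjusted p of 0.0465. Cpt1a and Hadha also separated, at -0.19 ± 0.06 and -0.09 ± 0.03, without passing (adjusted p 0.0700 and 0.0817), and such a separation downwards was found for 2.1% of all genes. Of the 30 genes 9 had differences above 0, against 43% of all genes, and of the 6 carnitine shuttle genes 0 did. The call of Crat was missed under the scaling, without a filter on low values, with the length trend removed and without the libraries high in Crisp1, with adjusted p of 0.0663 to 0.200. It held without the first HFD_STZ_AOS_FMT, the first or the second HFD_STZ_control_FMT, the third HFD_STZ_AOS, the third HFD_STZ or the second AOS library and was missed without any 1 of the other 12 (0.0517 to 0.117).

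Some markers of germ cells moved with AOS. The summed level of 7 elongating spermatid markers was 54863 to 62943 RPKM in HFD_STZ_AOS and 58676 to 60211 in AOS, against 49174 to 54878 in HFD_STZ and 47547 to 53699 in control. Of these markers Tnp1 and Tnp2, transition proteins of condensing chromatin, rose by 0.25 and 0.29 (adjusted p 0.0409 and 0.0277). Prm1, Prm2, Odf1 and Smcp also averaged higher with AOS on both backgrounds. Akap4 went the other way, averaging 860.46 RPKM in HFD_STZ_AOS and 867.8 in AOS, against 899.04 in HFD_STZ and 919.06 in control. Of 5 spermatocyte markers Sycp1 and Sycp2, of the synaptonemal complex, fell by 0.25 and 0.20 (adjusted p 0.0275 and 0.0235). All 6 Leydig markers had differences below 0, with a median of -0.30, and none passed. The calls of these markers, and those of Acr and Hsd3b1 above, were not followed in the alternative fits, so how firm they are is not known. The part of these shifts in the level of Crat was not tested.

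On the diet with STZ, HFD_STZ_AOS was set against HFD_STZ. No gene of the set passed, nor did any gene of the table (0%), with 1734 (12.5%) at an unadjusted p below 0.05. At that level 2 genes of the set were higher and 4 lower, against 6.23% and 6.26% of all genes. Cpt2, the inner membrane transferase, was at 29.5, 28.3 and 29.5 RPKM in HFD_STZ_AOS and 32.0, 31.4 and 31.9 RPKM in HFD_STZ, a difference of -0.12 ± 0.04. Bdh1, the enzyme that interconverts the 2 main ketone bodies, was at 6.88, 7.24 and 7.88 RPKM in HFD_STZ_AOS and 6.57, 5.50 and 5.76 RPKM in HFD_STZ, a difference of 0.26 ± 0.09. Both had non-overlapping groups and an adjusted p of 0.252. For Crat the difference was -0.10 ± 0.04 with an adjusted p of 0.267. Differences above 0 were found for 12 of 30 genes, against 47.7% of all genes. Libraries of HFD_STZ_AOS were all higher for 4 genes (Acsl1, Cpt1c, Bdh1 and Oxct2a), against 7.37% of all genes, and all lower for 4 (Cpt1a, Cpt2, Crat and Hadha), against 9.8%. Set against AOS, HFD_STZ_AOS gave no call in the set either, where 0.541% of all genes passed (0.483% rose and 0.0577% fell), and the smallest adjusted p was 0.0868, for Acadvl. With an unadjusted p below 0.05, 10 genes of the set were higher and 1 lower, against 12.4% and 3.75% of all genes. Differences above 0 were found for 25 of 30, against 64% of all genes. Every HFD_STZ_AOS library was above every AOS library for 9 genes, among them Decr1, Acadl, Acadvl, Ucp2 and Bdh1, against 13.5%, and below for 1 (Etfb), against 5.3%. Fabp3 rose in that comparison by 0.70 ± 0.15 (adjusted p 0.0484), a call kept in 4 of 25 alternative fits.

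Whether AOS acted differently with and without the diet was tested as an interaction, and no gene of the set or of the table passed (0%). With an unadjusted p below 0.05 there were 640 of the 13874 genes (4.61%). Among the 30 there was 1, Bdh1, at 0.36 ± 0.12 and an unadjusted p of 0.0109. Bdh1 averaged 7.33 ± 0.506 RPKM in HFD_STZ_AOS and 5.94 ± 0.558 in HFD_STZ, and 5.77 ± 0.450 in AOS and 6.22 ± 0.472 in control (SD, n = 3 each).

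The transfer groups were set against HFD_STZ, which both comparisons share. In HFD_STZ_AOS_FMT no gene of the set passed, where 0.0144% of all genes rose and 0% fell. Crat was at 411.1, 426.3 and 422.5 RPKM in HFD_STZ_AOS_FMT, against the HFD_STZ values above, a difference of -0.11 ± 0.04 with an adjusted p of 0.219. Cpt1b was at 112.5, 109.2 and 110.3 RPKM in HFD_STZ_AOS_FMT, a difference of -0.09 ± 0.03 with an adjusted p of 0.243. Both stood below every HFD_STZ library. Hadhb was at 48.7, 52.2 and 50.1 RPKM in HFD_STZ_AOS_FMT and 55.6, 56.1 and 54.0 RPKM in HFD_STZ, a difference of -0.13 ± 0.05 with an adjusted p of 0.278. With an unadjusted p below 0.05, 0 genes of the set were higher and 7 lower, against 6.31% and 8.14% of all genes. Differences above 0 were found for 7 of 30 genes and for 43.7% of all genes, with medians of -0.07 and -0.02. Those below 0 included 6 of 6 carnitine shuttle and 8 of 9 spiral genes. Those above 0 were the ketone genes Bdh1, Oxct1 and Oxct2a, together with Etfa, Etfb, Echs1 and Ucp2. These counts are on the values as deposited. The median-ratio factors were 1.022, 1.024 and 1.023 in HFD_STZ and 0.9752, 1.03 and 1.006 in HFD_STZ_AOS_FMT. The groups did not overlap for 6 genes with lower levels (Cpt1b, Cpt1c, Cpt2, Crat, Hadha and Hadhb), against 11.6% of all genes, and for 2 with higher levels (Oxct1 and Oxct2a), against 7.82%.

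In HFD_STZ_control_FMT, too, no gene of the set passed, where 0% of all genes rose and 0.00721% fell. Cpt1a was at 9.70, 9.65 and 9.94 RPKM in HFD_STZ_control_FMT and 11.1, 12.5 and 12.3 RPKM in HFD_STZ, a difference of -0.27 ± 0.08 with an adjusted p of 0.147. Crat was at 407.6, 436.2 and 424.9 RPKM and Cpt1b at 111.1, 112.2 and 108.2 RPKM in HFD_STZ_control_FMT. Both again stood below every HFD_STZ library, by -0.10 ± 0.04 and -0.10 ± 0.03, with adjusted p of 0.193 and 0.196. With an unadjusted p below 0.05, 1 gene of the set was higher and 4 were lower, against 6.06% and 10.1% of all genes. Differences above 0 were found for 8 of 30 genes and for 41.1% of all genes, with medians of -0.05 and -0.03. The groups did not overlap for 6 genes with lower levels, against 16% of all genes, and for 2 with higher levels, against 8%.

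**Figure D4:**
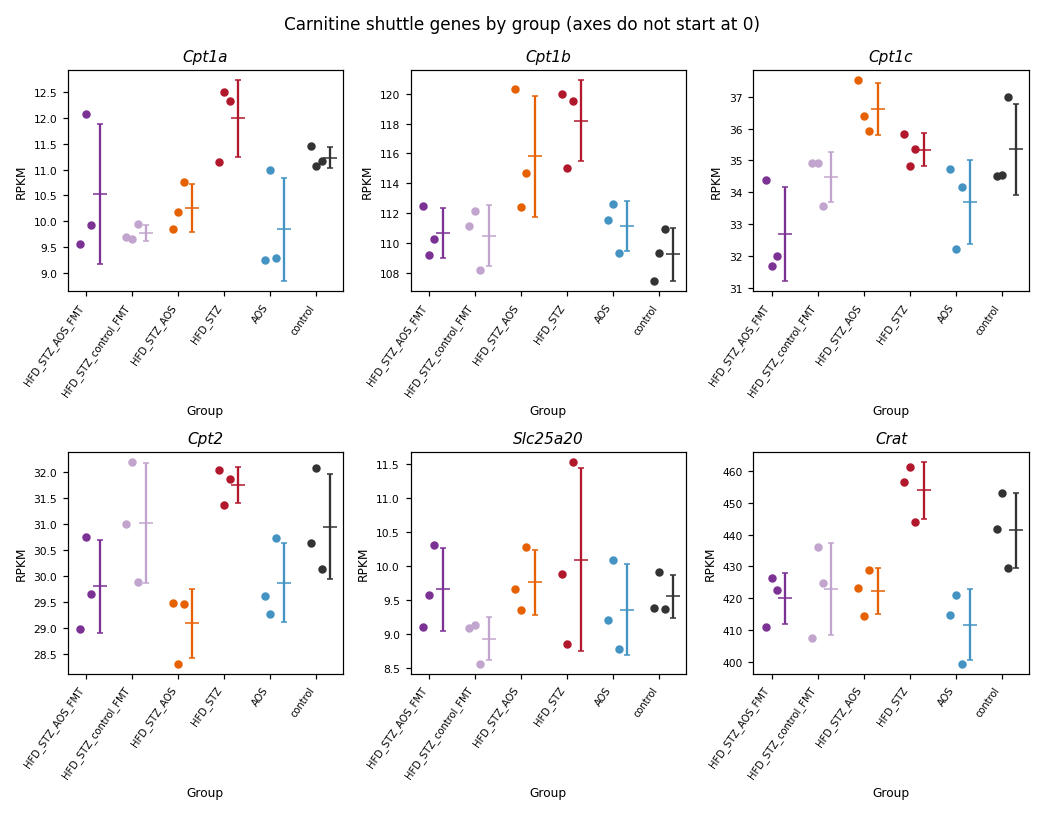
RPKM of the 6 carnitine shuttle genes in each library (points) of the 6 groups, with the mean and SD of 3 libraries (bar beside them). Crat is at 443.9 to 461.2 RPKM in HFD_STZ and lower in both transfer groups, HFD_STZ_AOS and AOS, and no difference in a comparison of 2 groups passed the test.

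Between the transfers, HFD_STZ_AOS_FMT against HFD_STZ_control_FMT, no gene of the set passed (smallest adjusted p 0.999), where 0.0216% of all genes rose, and none of the 30 had an unadjusted p below 0.05. Cpt1c was at 34.4, 31.7 and 32.0 RPKM in HFD_STZ_AOS_FMT and 34.9, 34.9 and 33.6 RPKM in HFD_STZ_control_FMT, with overlap and an unadjusted p of 0.104. Oxct1 was at 13.7, 13.1 and 13.1 RPKM in HFD_STZ_AOS_FMT and 13.4, 11.7 and 12.7 RPKM in HFD_STZ_control_FMT, a difference of 0.08 ± 0.05. Acadvl was at 10.3, 11.3 and 10.1 RPKM in HFD_STZ_AOS_FMT and 12.9, 11.7 and 10.7 RPKM in HFD_STZ_control_FMT, a difference of -0.14 ± 0.09. No gene of the 30 had groups that did not overlap, against 5.15% of all genes with higher and 3.27% with lower levels.

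Against control, which both comparisons share, no gene of the set passed in either transfer group, where 0.0144% of all genes did in HFD_STZ_AOS_FMT and 0.00721% in HFD_STZ_control_FMT. With an unadjusted p below 0.05, 1 gene was higher and 1 lower in each, against 7.88% and 5.58% of all genes in HFD_STZ_AOS_FMT and 7.4% and 6.67% in HFD_STZ_control_FMT. Ucp2 had the smallest adjusted p in both, with differences of 0.23 in HFD_STZ_AOS_FMT (adjusted p 0.198) and 0.23 in HFD_STZ_control_FMT (0.181). Differences above 0 were found for 16 of 30 genes in each, against 52.4% of all genes in HFD_STZ_AOS_FMT and 48.4% in HFD_STZ_control_FMT. The median over the 30 was 0.01 in both. In the test for any difference among the 6 groups, passed by 0.0432% of all genes, none of the 30 passed, and the smallest adjusted p was 0.115, for Ucp2.

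Of the 4 genes below 1 RPKM, Ppara alone passed the filter, and it passed no test (adjusted p 0.871 among the 6 groups). Ppara averaged 0.853 ± 0.188 RPKM in HFD_STZ_AOS_FMT, 0.977 ± 0.214 in HFD_STZ_control_FMT, 0.933 ± 0.157 in HFD_STZ_AOS, 1.03 ± 0.107 in HFD_STZ, 1.00 ± 0.0379 in AOS and 0.957 ± 0.140 in control (SD, n = 3 each). Pdk4 was at 1.00, 0.95 and 0.88 RPKM in HFD_STZ and 0.51, 0.75 and 0.68 RPKM in control, without overlap. Its estimated reads had a median of 31.0 per library. With no filter on low values its difference was 0.24 ± 0.07 with an adjusted p of 0.366. In HFD_STZ_AOS_FMT Pdk4 was at 0.67, 0.91 and 0.72 RPKM, in HFD_STZ_control_FMT at 0.62, 0.65 and 0.68 RPKM, in HFD_STZ_AOS at 0.56, 0.66 and 0.64 RPKM and in AOS at 0.44, 0.65 and 0.47 RPKM. In the same fit the difference of HFD_STZ_AOS from HFD_STZ was -0.26 ± 0.07 (adjusted p 0.241) and that with AOS over both backgrounds -0.19 ± 0.05 (adjusted p 0.0739), and no comparison of Pdk4 passed. Ehhadh, the bifunctional enzyme of peroxisomes, ranged from 0.55 to 1.06 RPKM over the 18 libraries, with its lowest value in the third AOS and its highest in the third HFD_STZ_AOS library.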

How the data were processed

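Frozen testes gave RNA by Trizol and column purification for Illumina libraries, per the labels' protocols. Bowtie 0.12.2 and mm10 are named, per the submitters' processing notes. The counting tool, annotation and use of strand are not given in the sources used here, so reads of overlapping genes or copies may be misassigned. The authors deposited 1 table of values per symbol and library, rounded to hundredths. Its header names no unit, and RPKM was inferred from the deposited values, whose smallest steps depend on the gene and whose sums differ between libraries. RPKM is relative, so a change in abundant transcripts moves all others. Depth was estimated from those steps within a grid of 8000000 to 20000000 reads, where at most 41.0% of low values fell within 0.1 read of a whole number, so it is rough.

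Of 20985 rows, 6 with 3 repeated symbols were left out. Values were tested as log2(RPKM + 1), a pseudocount that understates changes of low genes, for 13874 genes that reached 1 RPKM in 3 or more libraries. The plan named a count test for counts and limma for RPKM, and limma 3.58.1 in R 4.3.3 was used, with a variance trend, 1 coefficient for each of 6 groups over 18 libraries, 12 residual and 3.71 prior degrees of freedom, two-sided p and Benjamini-Hochberg adjustment within each comparison at 0.05. The fit was tested on simulated data with known log2 differences. Of 50 genes with a difference of 0.25, 44% were called in HFD_STZ against control. In HFD_STZ and HFD_STZ_AOS against AOS and control 72% were. At a difference of 0.5 the shares were 90% and 96%. A gene with a smaller difference can thus be missed. The genes, lists, contrasts and tests were chosen with earlier results of these data known. Named with values were genes called in any contrast, the 3 with the smallest p in the main comparisons, and the Cpt1 and Oxct paralogs. A further gene of the wider pathway list is not reported here. Alternatives were median-ratio scaling, no filter, a pseudocount of 0.1, only the groups compared, replicate number as a block, and each library left out. Removal of the transcript length trend (lowess span 0.3) and omission of 4 libraries above 50 RPKM of Crisp1 were added after seeing the data. Gene coordinates are from GENCODE vM21 (GRCm38), and promoter stretches from RefSeq. Tables and plots used Python 3.11.15, pandas 2.3.3, numpy 2.4.6 and matplotlib 3.10.9.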

Additional observations from a re-analysis of the deposited data

How the results depend on the processing

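In the contrast of HFD_STZ and HFD_STZ_AOS with AOS and control, 3 genes of the set were called, against 1 under median-ratio scaling and 1 with the length trend removed (Etfb, lower, in both), 0 without a filter on low values, 0 in a fit of only the 4 groups compared, 0 without the libraries high in Crisp1, and 0 to 3 with 1 library left out. For AOS over both backgrounds, 1 gene (Crat) was called, against 0 under scaling, 0 without a filter, 0 with the length trend removed, 0 without the libraries high in Crisp1, and 0 to 2 with 1 library left out. For all HFD_STZ groups against AOS and control, 1 gene (Ucp2) was called, against 0 under scaling, 0 without a filter, 0 with the length trend removed, 0 without the libraries high in Crisp1, and 0 to 2 with 1 library left out. HFD_STZ_AOS against AOS gave 0, with 1 (Acadvl, adjusted p 0.0158) without the second HFD_STZ_AOS library. All other comparisons gave 0 in the set in every alternative run. The filter's removal tests more genes and the omissions leave fewer libraries; for the rest the cause was not tested.

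Over all genes the count of 396 in the first contrast ran from 111 to 694 with 1 library left out and from 36 to 399 in the other alternatives. The counts of 325 for AOS and 102 for all HFD_STZ groups ran from 0 to 784 and from 1 to 230 with 1 library left out, and from 0 to 569 and from 2 to 110 otherwise. HFD_STZ_AOS against AOS, at 75, ran from 1 to 398 and from 1 to 70. In the test of AOS the split of 180 higher and 145 lower was 116 and 52 under scaling, and for all HFD_STZ groups 91 and 11 became 30 and 16. Of 33 results of a gene in a comparison that were refitted under the alternatives, none changed direction. Leaving out a library of a group outside a comparison cannot change its difference, so part of these fits could not change direction. The 15 that were called passed in 140 of 371 alternative fits and were missed in 231, and the 18 that were not called passed in 0 of 450.

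Replicate numbers showed no clear pairing of the libraries. Deviations from the group means correlated by -0.25 to 0.41 between libraries of the same number (median 0.000513, 45 pairs). Between libraries of different numbers they correlated by -0.35 to 0.38 (median -0.014, 90 pairs). Of 18 libraries 8 were closest to their own number. With the number as a block, the counts of called genes of the set were 2, 1 and 0 in the 3 contrasts above, in that order, and 0 in the others.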
